A study of Homo sapiens with 8 samples.

Results

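AP-1 is a dimer of leucine zipper proteins, and the RNA of 8 of its subunits was read in Hct116, a human line established from a colorectal carcinoma. The subunits are FOS, FOSB, FOSL1 and FOSL2 of the FOS family, JUN, JUNB and JUND of the JUN family, and ATF3. They were taken by gene symbol from 23459 genes, each symbol matched 1 gene, and all 8 had enough counts to be tested. Cells were grown as adherent cultures and received either 30 μM lenalidomide, an immunomodulatory drug that redirects the CRL4-CRBN ubiquitin ligase to new substrates, or DMSO, its solvent, for 16 h. There were 4 libraries of total RNA per treatment, and no other difference between the groups is described. By the methods, the medium was exchanged for one with isotope-labelled amino acids in both groups when drug or solvent was added, and the cells were shared with a protein experiment in which 2 of 4 replicates had swapped labels. Which RNA libraries these were is not given in the sources used here. The series record and the legend on these RNA data call the replicates biological, whereas the methods call those of the matching protein experiment technical, so p-values measure the spread between these libraries, part of which may be technical. All cells came from 1 line, and the sources differ on the growth medium, with ordinary serum in the sample records and dialysed serum in the methods.

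FOS proteins bind DNA mainly as dimers with a JUN protein, whereas JUN proteins can also pair with each other or with ATF3. FOS, FOSB, JUN and JUNB are immediate-early genes, whose transcription starts within minutes of a growth factor signal and whose RNAs decay quickly. For FOS the signal runs through ERK, ELK1 and the serum response factor SRF. FOSL2 and ATF3 are also inducible, the latter by stress, and these 6 genes are called fast-turnover subunits below. FOSL1, which is sustained by ERK signalling in many carcinoma cells, and JUND, which is expressed in most resting cells, were taken as the constitutive subunits. The RNA counts do not measure AP-1 protein or its activity.

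The upstream sequences are shown as a description, longest for FOS and FOSB, and a link between sequence and fold change was not tested. Each is read 5′ to 3′ on the strand of the gene from the GRCh37 genome, and bases are numbered upstream from the canonical transcription start in the GENCODE annotation. Capitals mark a CArG box (the binding motif of SRF), the cAMP response half-site TGACG or its reverse complement CGTCA, the full site TGACGTCA, the JUN promoter variant TGACATCA and the TATA box TATAAA. The FOS stretch covers chr14:75745212-75745511 on the plus strand. The FOSB stretch covers chr19:45970954-45971253 on the plus strand and ends at the last base before the start site. The full TGACGTCA site of FOSB lies 325 to 318 bases upstream, outside this stretch.
FOS: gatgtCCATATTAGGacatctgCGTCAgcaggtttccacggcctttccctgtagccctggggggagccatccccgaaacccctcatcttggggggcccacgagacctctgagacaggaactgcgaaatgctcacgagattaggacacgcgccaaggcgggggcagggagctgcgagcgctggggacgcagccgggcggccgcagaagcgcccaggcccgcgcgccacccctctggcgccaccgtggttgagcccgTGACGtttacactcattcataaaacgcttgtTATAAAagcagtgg
FOSB: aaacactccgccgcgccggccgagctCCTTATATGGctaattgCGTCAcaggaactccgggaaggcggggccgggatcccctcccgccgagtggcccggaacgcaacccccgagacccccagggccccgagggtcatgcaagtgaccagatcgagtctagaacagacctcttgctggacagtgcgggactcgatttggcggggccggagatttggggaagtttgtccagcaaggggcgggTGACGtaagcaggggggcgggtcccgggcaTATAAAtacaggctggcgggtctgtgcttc

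In both genes a CArG box was followed after 7 bases by CGTCA. The FOS box, CCATATTAGG, lay 314 to 305 bases upstream at chr14:75745217-75745226, and the FOSB box, CCTTATATGG, lay 274 to 265 bases upstream at chr19:45970980-45970989. Within 500 bases upstream, a CArG box was found in 2 of the 8 subunits, FOS and FOSB, and in 2.40% of 19881 protein-coding promoters. The CArG box with CGTCA after 7 bases, on either strand, was found in 6 of those promoters (0.0302%), and the spacing was chosen after the FOS and FOSB sequences were read. The 6 genes were FOS, FOSB, EGR1, EGR2, EGR3 and DUSP5, all known as serum-induced genes. A motif match is a description of the sequence and does not show that a factor bound there in these cells.

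FOSL2, JUN, JUNB, JUND and ATF3 are shown from 79 to 20 bases upstream, where the exact match TATAAA, if present, is in capitals. Other TATA-like stretches, such as tataag in JUND, were not searched for and stay in lower case. FOSL2 lies at chr2:28615646-28615705 (plus strand), JUN at chr1:59249739-59249798 (minus), JUNB at chr19:12902221-12902280 (plus), JUND at chr19:18392452-18392511 (minus) and ATF3 at chr1:212782024-212782083 (plus). The last line is a JUND stretch further upstream, chr19:18392612-18392642 on the minus strand, which holds its full TGACGTCA site.
FOSL2: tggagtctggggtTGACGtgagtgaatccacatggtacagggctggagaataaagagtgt
JUN: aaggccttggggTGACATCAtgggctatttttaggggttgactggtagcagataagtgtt
JUNB: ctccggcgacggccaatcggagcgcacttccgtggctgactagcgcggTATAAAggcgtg
JUND: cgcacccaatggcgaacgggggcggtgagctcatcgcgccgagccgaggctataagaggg
ATF3: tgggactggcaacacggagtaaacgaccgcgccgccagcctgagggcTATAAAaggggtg
JUND, upstream site: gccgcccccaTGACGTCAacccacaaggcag

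TATAAA, searched on both strands, was found in the 500 bases upstream of FOS, FOSB, JUNB and ATF3 and in 18.0% of all promoters. TGACGTCA was found in FOSB and JUND and in 2.89% of promoters, and TGACATCA in JUN and in 2.69%. The half-site TGACG, which the full site contains, was found in all 8 subunits and in 36.4% of promoters. The pattern TGANTCA, which is broader than the AP-1 site TGA(C/G)TCA, was found in none of the 8 windows and in 9.68% of all promoters. The windows of the subunits were between 62.6% (JUNB) and 77.2% (JUND) G and C, against a median of 58.4% for all promoters.

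Library totals ran from 28218471 to 37473413 counts, with all 4 lenalidomide totals below all 4 DMSO totals (exact permutation test, two-sided, p = 0.0286, the smallest possible with 4 against 4). Of the 13925 genes tested, DMSO replicate 3 had the highest value of the 8 libraries in 17.3% and the lowest in 19.3%, and lenalidomide replicate 4 in 20.4% and 20.4%, against 6.59% to 12.4% and 6.50% to 12.7% for the other libraries. Log2 fold changes of the subunits are therefore also given without single libraries where these moved them most. The epithelial genes EPCAM, with 590 ± 32.7 CPM (SD, n = 4; counts scaled to a common library size), and KRT19, with 846 ± 72.3 CPM in DMSO, were abundant, whereas the enterocyte genes CDX1, VIL1 and LGALS4 had 2, 7 and 5 counts in all 8 libraries together. CDX2, another of the colon epithelial markers, was detected, with 8.48 ± 0.269 CPM in DMSO (SD, n = 4) and 2254 counts in the 8 libraries together. Of 10 markers of other cell types, CD3E and GFAP had 2 and 5 counts, and the highest was CD68 at 4.53 ± 0.576 CPM (SD, n = 4) in DMSO.

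FOSL1 was the most abundant subunit per length of gene model. In DMSO it stood at 64.0 ± 10.6 RPKM (SD, n = 4; CPM per kilobase of exonic width), followed by JUND at 17.8 ± 1.53 and JUNB at 12.1 ± 1.05 RPKM. FOS followed at 10.6 ± 6.43 RPKM, FOSL2 at 6.02 ± 0.488, ATF3 at 5.31 ± 0.968, JUN at 4.81 ± 1.30 and FOSB at 2.50 ± 0.821 RPKM (SD, n = 4 each). FOSL1 was above JUND, JUND above JUNB, and JUN above FOSB in every DMSO library. From JUNB down to JUN the ranges of neighbours overlapped.

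With lenalidomide the order of FOSL1, JUND and JUNB, at 55.9 ± 2.54, 17.3 ± 1.64 and 10.3 ± 1.15 RPKM (SD, n = 4 each), was the same as with DMSO. FOSL2, at 5.54 ± 0.359 RPKM, was the next subunit, and FOS, at 4.05 ± 1.73 RPKM, lay between ATF3 at 5.17 ± 0.546 and JUN at 3.45 ± 0.282 RPKM, with ranges that overlapped both. FOSB remained the lowest, at 1.28 ± 0.585 RPKM (SD, n = 4).

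Within each family the same levels can be read as shares, which do not depend on library scaling. FOSL1 made up 65.5% to 81.8% of the FOS family RPKM in the DMSO libraries and 79.1% to 87.2% with lenalidomide. FOS made up 9.82%, 8.41%, 9.01% and 23.4% in DMSO replicates 1 to 4, and 4.29%, 3.78%, 6.70% and 9.48% in lenalidomide replicates 1 to 4. The FOS share thus overlapped between treatments, since lenalidomide replicate 4 stood above DMSO replicates 2 and 3. FOSB held 2.48% to 4.19% of the family in DMSO and 1.22% to 3.21% with lenalidomide, and FOSL2 6.83% to 8.08% and 7.83% to 8.65%. In the JUN family, JUND held 46.0% to 54.6% in DMSO and 53.6% to 59.2% with lenalidomide, JUNB 32.6% to 36.3% and 30.5% to 34.4%, and JUN 11.2% to 19.9% and 10.1% to 12.5%.

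**Figure D1:**
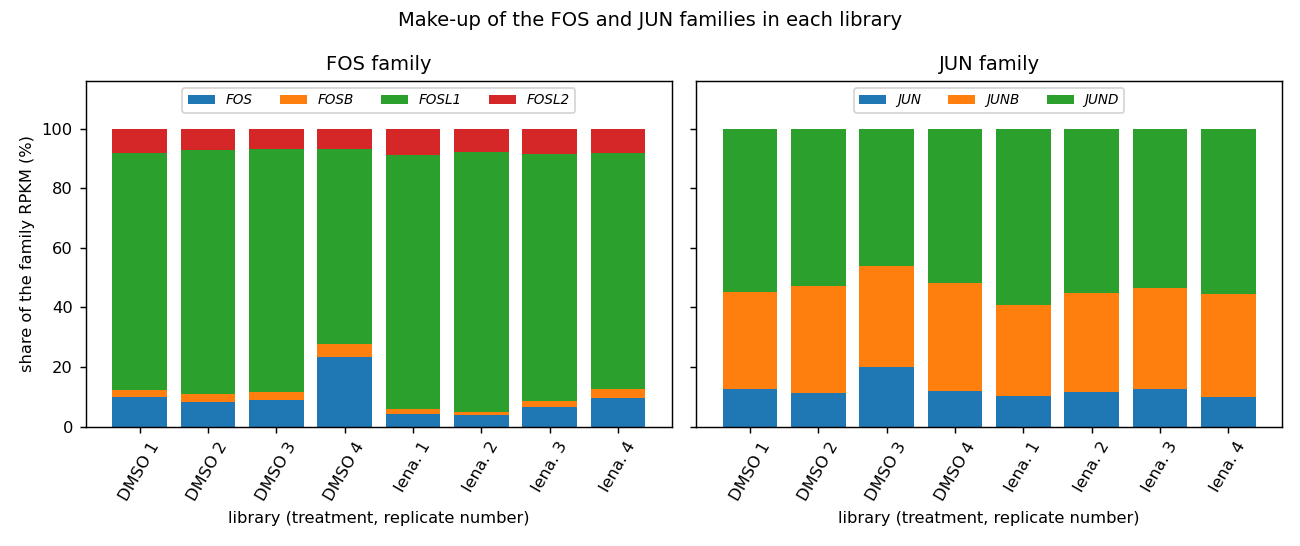
Stacked bars give the share of each subunit (percent of the summed RPKM of its family, y axis) in each of the 8 libraries (x axis), for the FOS family on the left and the JUN family on the right. FOSL1 holds the largest part of every FOS family bar, from 65.5% in DMSO replicate 4 to 87.2% in lenalidomide replicate 2, and JUND the largest part of every JUN family bar.

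The comparison of lenalidomide with DMSO asks whether transcript levels of AP-1 subunits differed after 16 h of treatment. The fitted log2 fold changes of all 8 subunits were below 0, from -1.40 for FOS to -0.035 for ATF3, with a median of -0.21, against a median of 0.0025 over all genes tested, of which 48.7% were below 0. The subunits and the gene lists below were chosen with earlier results of these data known, so counts over them are descriptions only. In the quasi-likelihood fit of edgeR, adjusted by Benjamini and Hochberg's method, 0 of the 8 passed the threshold of 0.05, as against 0.0144% of all genes (2 of 13925). An unadjusted p under 0.05 was found for 4 subunits, FOS, FOSB, JUN and JUNB, all with lower values with lenalidomide, against 4.18% of all genes tested in either direction and 0.919% in the lower one (128 of 13925). That lower share was 2.27% without DMSO replicate 3, 211 of 14049 genes without lenalidomide replicate 2 and from 0.751% to 1.06% without each other library. FOS, FOSB and JUN kept an unadjusted p under 0.05 in 8 of 8 fits that left out 1 library, and JUNB in 5 of 8. DESeq2 also put 0 subunits past an adjusted p of 0.05, and edgeR's likelihood ratio test put 1, FOS, where they put 9 and 12 of all genes past it. Each gave 5 subunits at an unadjusted p under 0.05, the 4 above and FOSL1, against 3.43% and 4.38% of all genes. With the replicate number added to the edgeR fit, FOS and FOSB passed the adjusted threshold. That fit is given with the processing alternatives below, since no pairing of same-numbered libraries is described. In RNA from whole cultures, fewer cells that express a gene and less RNA per cell cannot be told apart.

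FOS (chr14:75745529-75748933), the founding partner of JUN, had the lowest log2 fold change. Its level was 17.4, 15.0, 21.0 and 48.2 CPM in DMSO replicates 1 to 4 and 7.04, 5.88, 10.8 and 15.0 CPM in lenalidomide replicates 1 to 4. DMSO replicate 4 stood far above the other DMSO libraries, and the groups touched, with 15.04 CPM as the lowest DMSO value and 15.05 CPM as the highest lenalidomide value (two-sided exact permutation test, p = 0.0571). The log2 fold change of -1.40 (standard error 0.34, 95% confidence interval -2.1 to -0.66) had an adjusted p of 0.854 (quasi-likelihood test of edgeR) and ranked at 19 by p among the genes tested. Without DMSO replicate 4 it was -0.885, and without lenalidomide replicate 4 it was -1.69.

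FOSB (chr19:45971253-45978437), the closest relative of FOS, ordered the libraries within each treatment as FOS did. It had 9.07, 8.86, 12.7 and 17.2 CPM in DMSO replicates 1 to 4 and 4.96, 3.80, 5.66 and 10.2 CPM in lenalidomide replicates 1 to 4. Lenalidomide replicate 4 lay above DMSO replicates 1 and 2, so that the groups overlapped (two-sided exact permutation test, p = 0.0857). The log2 fold change was -0.97 (standard error 0.26, 95% confidence interval -1.5 to -0.41, adjusted p = 0.999 from edgeR's quasi-likelihood test), and ran from -1.32 without lenalidomide replicate 4 to -0.736 without DMSO replicate 4.

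JUN (chr1:59242517-59249720, with 1 exon in its canonical transcript), the main dimer partner of FOS, was the only subunit whose libraries did not overlap between treatments. This held for 0.840% of all genes tested in the lower direction and 1.24% in the higher. It had 14.0, 13.5, 22.5 and 14.0 CPM in DMSO replicates 1 to 4 and 10.6, 11.0, 12.8 and 11.5 CPM in lenalidomide replicates 1 to 4 (two-sided exact permutation test, p = 0.0286, the smallest possible). The log2 fold change of -0.48 (standard error 0.14, 95% confidence interval -0.78 to -0.17) had an adjusted p of 0.999 (quasi-likelihood test of edgeR). DMSO replicate 3 stood far above the other DMSO libraries, and leaving it out gave -0.274.

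JUNB, which can oppose JUN in growth control, had 19.6, 23.9, 21.0 and 23.0 CPM in DMSO replicates 1 to 4 and 17.1, 17.0, 19.0 and 21.4 CPM in lenalidomide replicates 1 to 4. Only lenalidomide replicate 4 reached the DMSO range, which it entered above replicates 1 and 3 (two-sided exact permutation test, p = 0.0857). The log2 fold change was -0.23 (95% confidence interval -0.42 to -0.049, adjusted p = 0.999 from edgeR's quasi-likelihood test). Its unadjusted p was above 0.05 without DMSO replicate 2, lenalidomide replicate 1 or lenalidomide replicate 2, with log2 fold changes of -0.191, -0.197 and -0.192. In the GENCODE annotation the exons of JUNB, at chr19:12902300-12904129, overlap those of HOOK2 on the opposite strand. The counts were made on UCSC known genes, in which this overlap was not checked, and no strand setting of the counting is given in the sources used here. Whether reads of either gene were counted for the other is therefore not known, and HOOK2 lay at a log2 fold change of 0.091 (standard error 0.099).

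FOSL2 (chr2:28615315-28640184), a relative of FOS without its strong activation domain, had 36.4, 33.3, 40.5 and 36.0 CPM in DMSO replicates 1 to 4 and 36.0, 30.9, 34.6 and 33.0 CPM in lenalidomide replicates 1 to 4, with overlapping groups. Its log2 fold change of -0.12 had a 95% confidence interval from -0.27 to 0.027, and became -0.0725 without DMSO replicate 3 and -0.163 without DMSO replicate 2. ATF3 (chr1:212738676-212794119), a stress-induced partner of JUN, had 16.0, 17.2, 22.6 and 15.5 CPM in the DMSO replicates and 16.6, 19.5, 18.1 and 15.2 CPM in the lenalidomide replicates. The lenalidomide values of ATF3 lay inside the DMSO range but for replicate 4, and the log2 fold change was -0.035 (95% confidence interval -0.28 to 0.21). Without DMSO replicate 3, where ATF3 was highest, it was 0.0946.

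Of the constitutive subunits, FOSL1 lay close to the unadjusted threshold (unadjusted p = 0.0506 and adjusted p = 0.999 in edgeR's fit across all genes), and it passed the unadjusted one with DESeq2 and the likelihood ratio test. JUND did not come close to it (unadjusted p = 0.652 and adjusted p = 0.999 in edgeR's fit across all genes). FOSL1 (chr11:65659520-65668044) had 98.5, 102, 133 and 93.9 CPM in DMSO replicates 1 to 4 and 97.8, 94.5, 93.4 and 87.6 CPM in lenalidomide replicates 1 to 4. DMSO replicate 3 stood above all other libraries, and 2 of the lenalidomide libraries lay within the DMSO range (two-sided exact permutation test, p = 0.0857). The log2 fold change of FOSL1 was -0.19 (95% confidence interval -0.39 to 0.00062), and -0.0751 without DMSO replicate 3. JUND (chr19:18390504-18392432) had 33.9, 36.1, 29.2 and 33.7 CPM in the DMSO replicates and 34.3, 29.0, 30.8 and 35.6 CPM in the lenalidomide replicates, a log2 fold change of -0.036 (95% confidence interval -0.20 to 0.13). The groups of JUND overlapped, the sign turned without DMSO replicate 2 (0.00539) or lenalidomide replicate 2 (0.0141), and its 95% interval leaves out a decrease as large as the fitted one of FOS, FOSB, JUN or JUNB.

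**Figure D2:**
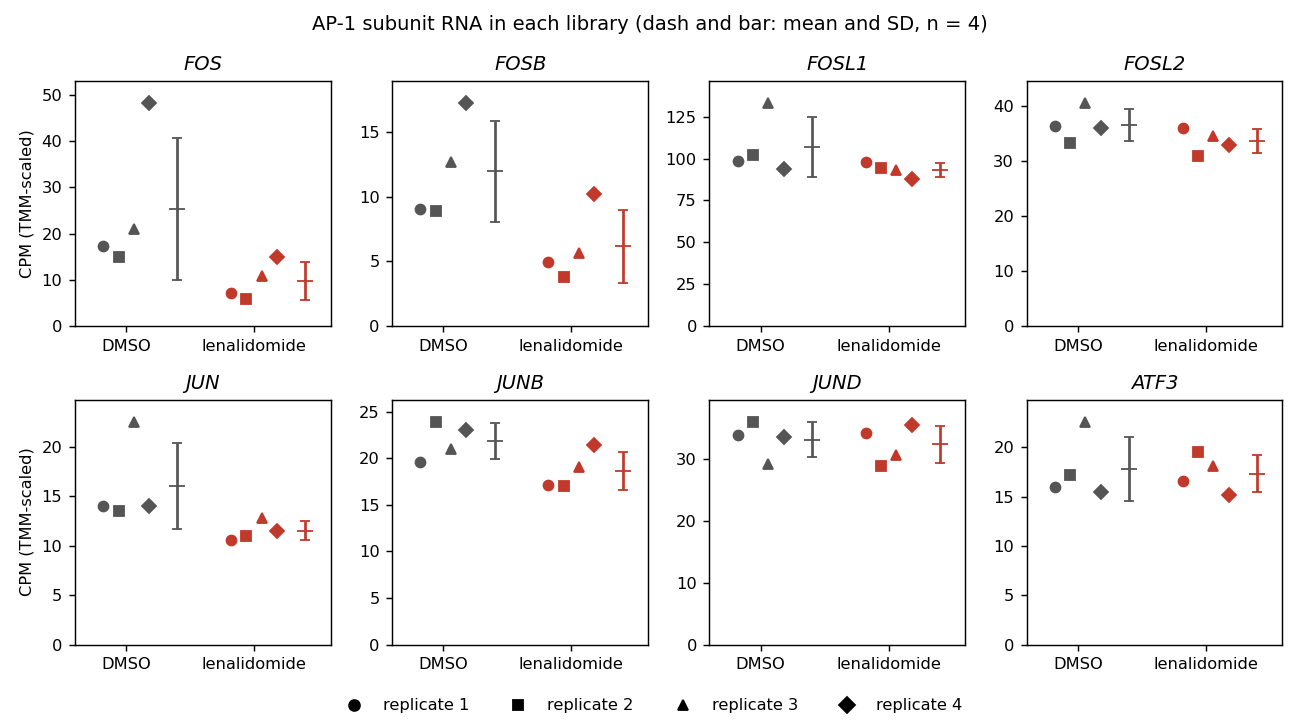
Each panel plots the level of 1 subunit (CPM scaled by library size and TMM factor, y axis from 0) in the 4 DMSO and the 4 lenalidomide libraries, with a symbol for each replicate number and a dash with a bar for the mean and SD (n = 4). FOS in DMSO replicate 4, at 48.2 CPM, and JUN in DMSO replicate 3, at 22.5 CPM, stand above the other libraries, and JUN is the panel in which the groups do not overlap.

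**Figure D3:**
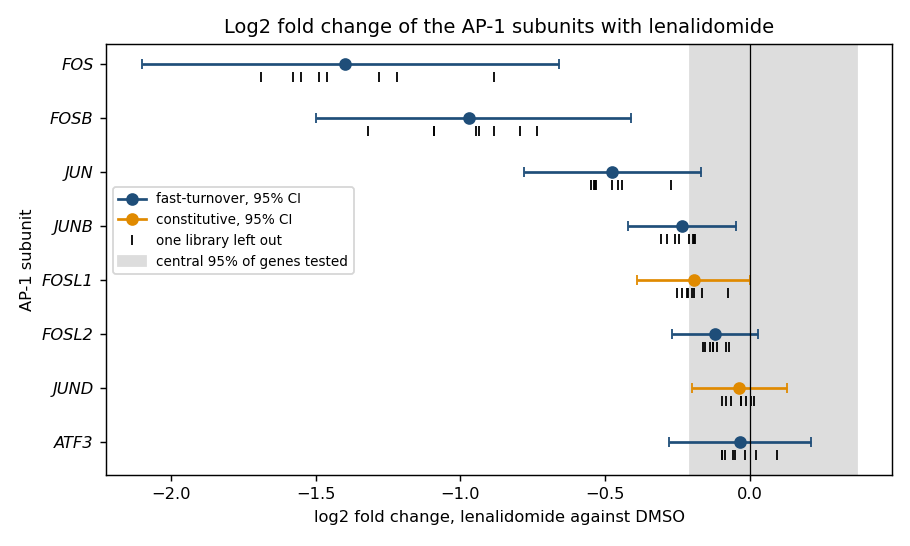
Points give the log2 fold change of each subunit (x axis, lenalidomide against DMSO) with its 95% confidence interval, blue for fast-turnover and orange for constitutive subunits, and ticks below each point give the 8 fits that left out 1 library each. The grey band holds the central 95% of the genes tested, from -0.21 to 0.37, and the points of FOS, FOSB, JUN and JUNB lie to its left. JUNB, at -0.23, is close to its edge, and the intervals of JUN and JUNB reach into the band.

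The fast-turnover subunits were then set against the constitutive ones within each library, as the log2 CPM of a subunit minus the mean log2 CPM of FOSL1 and JUND, a difference that library scaling cannot move. It was made from subunits chosen with results known, so it is given without a test. For FOS it was -1.73, -2.01, -1.56 and -0.22 in DMSO replicates 1 to 4 and -3.04, -3.15, -2.31 and -1.89 in lenalidomide replicates 1 to 4, a difference of the means of -1.22. DMSO replicate 2 lay below lenalidomide replicate 4, so that the groups overlapped. FOSB differed by -0.89, from a mean of -2.36 ± 0.48 to -3.25 ± 0.58 (SD, n = 4), and JUN by -0.34, from -1.92 ± 0.31 to -2.26 ± 0.15, also with overlap.

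The remaining fast-turnover subunits followed the constitutive ones more closely. JUNB differed by -0.13 from a mean of -1.44 ± 0.14 with DMSO, FOSL2 by -0.012 from -0.70 ± 0.11, and ATF3 by 0.080 from -1.75 ± 0.19 (SD, n = 4 each), all less than the SD of the DMSO libraries. The median over the 6 subunits was -0.23, with 5 of 6 below 0, and the library medians had a pooled SD of 0.17. With FOSL1 alone as the reference FOS, FOSB and JUN differed by -1.14, -0.82 and -0.27, and with JUND alone by -1.29, -0.97 and -0.41. FOSL1 was itself not even across libraries, since its log2 CPM exceeded that of JUND by 2.18 in DMSO replicate 3 and by 1.30 to 1.71 in the other libraries.

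**Figure D4:**
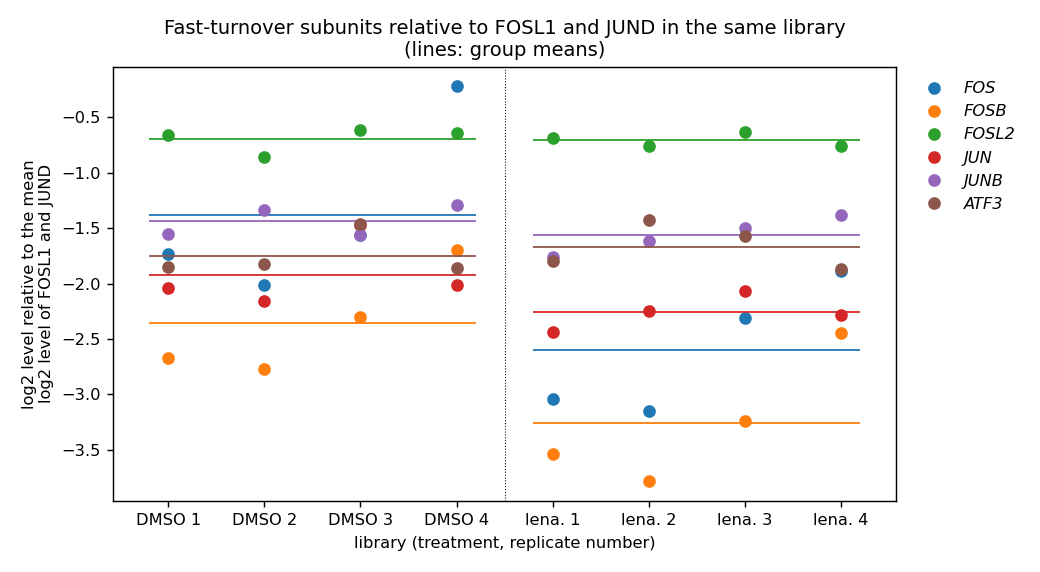
Points give, for each of the 8 libraries (x axis), the log2 level of each fast-turnover subunit relative to the mean log2 level of FOSL1 and JUND in the same library (y axis), with lines at the group means. FOS and FOSB lie lower in the lenalidomide libraries, by 1.22 and 0.89 between the means, with values that overlap, while FOSL2 lies between -0.86 and -0.62 in all libraries.

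The subunits also differed in how much they varied within a treatment. The biological coefficient of variation fitted by edgeR was 32.4% for FOS and 25.2% for FOSB, at percentiles 99.8 and 99.2 of the genes tested, whose median was 7.41%. JUN was at 13.7% (percentile 88.5), ATF3 at 10.9%, FOSL1 at 9.14%, JUNB at 8.33%, JUND at 7.79% and FOSL2 at 6.91% (percentile 40.6). Thus FOSL2, placed among the fast-turnover subunits, varied less than JUND. From its lowest to its highest library FOS spanned 3.20-fold in DMSO and 2.56-fold with lenalidomide, and FOSB 1.95-fold and 2.68-fold.

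With the treatment means subtracted, the subunits varied in separate ways over the 8 libraries. FOS and FOSB followed each other (Pearson's r = 0.92 over 8 libraries, given as a description), also without DMSO replicate 3 (0.94) or DMSO replicate 4 (0.95), and JUNB went partly with them (0.60 with FOS and 0.68 with FOSB). FOSL1, JUN and ATF3 were all highest in DMSO replicate 3, with r of 0.84 for FOSL1 and JUN, 0.78 for JUN and ATF3 and 0.89 for FOSL1 and ATF3. The likeness of JUN to the others rested on that library, since without it r was -0.39 with FOSL1 and 0.019 with ATF3, and it was 0.61 for FOSL1 and ATF3. JUND ran opposite to ATF3 (r = -0.86, and -0.75 without DMSO replicate 3). The points share libraries, depth and scaling.

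**Figure D5:**
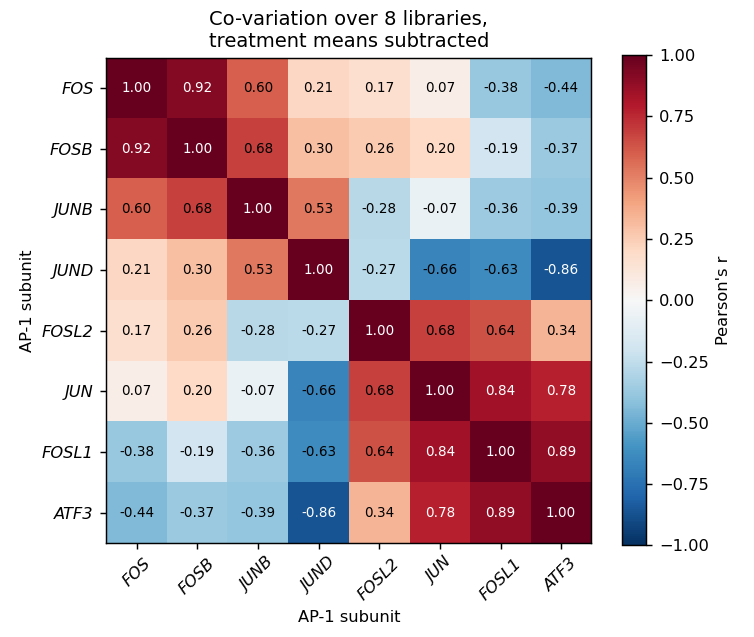
The colour and number of each cell give Pearson's r of the log2 CPM of a pair of subunits (both axes) over the 8 libraries after subtraction of the mean of each treatment, from -1 in blue to 1 in red. FOS and FOSB stand at 0.92, and the pairs of FOSL1, JUN and ATF3 at 0.78 to 0.89, which without DMSO replicate 3 become -0.39 (FOSL1 and JUN), 0.019 (JUN and ATF3) and 0.61 (FOSL1 and ATF3).

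Among 10457 other genes that averaged 5 CPM or more, the 5 whose variation within treatments was most like that of FOS over the 8 libraries were ZNF460, FAM72A, KIAA1161, FAM20C and FRYL, with Pearson's r from 0.940 to 0.960. FAM72A has near-identical paralogs, so its counts are uncertain. The 5 genes most like FOS had log2 fold changes from 0.0027 to 0.18. An r over 0.9 with FOS was found for 20 genes (0.191%), with JUN for 100 (0.956%) and with JUND for 83 (0.794%). An r below -0.9 was found for 29, 76 and 203 genes. Most like JUN were CYR61, a secreted matrix protein gene of the early response, PSMD2, EPB41L2, CCDC9 and PHF5A (r from 0.971 to 0.989, and from 0.69 to 0.92 without DMSO replicate 3), and most like JUND were POLI, KNTC1, LRIG2, APLP1 and SH3D19 (r from 0.970 to 0.984).

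Genes that act upstream of AP-1 showed little difference. Of 21 kinases and promoter factors 20 were tested, with a median log2 fold change of 0.013, and 1 had an unadjusted p under 0.05, a share near the 4.18% of all genes. This was ELK1, which binds the FOS promoter beside SRF, at 31.4 ± 0.884 CPM in DMSO and 28.6 ± 0.949 CPM in lenalidomide libraries (SD, n = 4), a log2 fold change of -0.14 without overlap, as for 0.840% of all genes in the lower direction (adjusted p = 0.999 by edgeR's quasi-likelihood test). The SRF coactivators MRTFB, at 0.13 (0.0239 without lenalidomide replicate 4), and MRTFA, at -0.086, came next by p. SRF itself was at -0.032 (standard error 0.059).

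Negative regulators and turnover factors of the pathway lay on both sides of 0. Of 16 tested, 0 passed the adjusted threshold of the quasi-likelihood test of edgeR and 4 had an unadjusted p under 0.05, 2 lower and 2 higher, where 0.919% and 3.26% of all genes did. ZFP36, whose protein promotes decay of AU-rich RNAs such as that of FOS and which is itself an early gene, had 15.3 ± 2.12 CPM in DMSO and 11.8 ± 1.85 CPM in lenalidomide libraries (SD, n = 4; log2 fold change -0.37). DUSP1, a phosphatase that switches MAP kinases off, was at -0.39 (-0.220 without DMSO replicate 4), and HNRNPD, another protein that binds AU-rich RNAs, at 0.22. The fourth was DUSP10, a phosphatase of JNK and p38, at 0.36 (0.256 without DMSO replicate 4), named after its values were seen. DUSP10 was low, at 1.36 ± 0.206 CPM in DMSO and 1.75 ± 0.0222 CPM in lenalidomide libraries (SD, n = 4). It kept an unadjusted p under 0.05 in 3 of 8 edgeR fits that left out 1 library.

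Of 16 other leucine zipper partners 13 were tested, with a median of -0.043, and DDIT3, a stress-induced gene, had the smallest p (log2 fold change -0.28, unadjusted p = 0.0281 in edgeR's fit across all genes, adjusted p = 0.999). MAFF was at -0.23 and ATF5 at -0.099, and at -0.0820 and -0.0391 without DMSO replicate 3. Of 20 textbook AP-1 target genes 13 had enough counts, with a median of -0.0016, 8 below 0 and 5 above it, and without DMSO replicate 3 the median was 0.032 with 3 below 0. Those with the smallest p were TGFB1, a growth factor, at 0.18 (unadjusted p = 0.043 in edgeR's fit across all genes), CD44, an adhesion receptor, at 0.11, and MMP7, a metalloprotease, at -0.37 (standard error 0.31, and -0.205 without lenalidomide replicate 1). The classical AP-1 targets MMP1 and MMP3 had 15 and 3 counts in the 8 libraries together and were not tested.

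Other immediate-early genes shared the direction in part. Of 18 genes 17 were tested, 13 of them with a log2 fold change below 0, where 48.7% of all genes were, with a median of -0.14. Without DMSO replicate 3 the median was -0.038, with 11 of 17 below 0. An unadjusted p under 0.05 was found for 3 of the 17, all lower, against 0.919% of all genes. IER2 was at -0.26 and IER3 at -0.23, both without overlap between treatments, as for 0.840% of all genes in the lower direction. EGR1, whose promoter carries the same CArG and CGTCA pair as FOS, had 18.1, 18.6, 34.8 and 22.6 CPM in DMSO replicates 1 to 4 and 17.0, 14.1, 17.1 and 22.9 CPM in lenalidomide replicates 1 to 4, a log2 fold change of -0.41 with overlapping groups (adjusted p = 0.999 by edgeR's quasi-likelihood test), and of -0.161 without DMSO replicate 3. EGR1 was highest in DMSO replicate 3, as were JUN and FOSL1, and not in DMSO replicate 4, where FOS and FOSB were highest.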

How the data were processed

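Total RNA libraries (ScriptSeq v2) were sequenced on an Illumina instrument, with bcl2fastq 2.17 named in the submitters' processing notes. With QuasR the authors mapped the reads to hg19, and they deposited 1 raw count per UCSC known gene and library, without normalization, beside the exonic width in bases. The methods quantify exonic and intronic reads separately, and the counts were read as exonic.

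In R 4.3.3 with edgeR 4.0.16, filterByExpr (minimum count 10, minimum total 15) kept 13925 of 23459 genes, including 8 of 8 subunits. TMM scaling and the quasi-likelihood test compared lenalidomide with DMSO over 8 libraries, with Benjamini-Hochberg adjustment over all genes kept. It was tested on simulated data. RPKM are TMM-scaled CPM per kilobase of exonic width, and log2 ratios use a prior count of 0.5. Exact permutation tests, 1 for each of 8 subunits, are two-sided over 70 splits and unadjusted. Alternatives were RLE scaling, DESeq2 1.42.0, the likelihood ratio test, a looser and a stricter filter, thinning, a replicate block and the removal of single libraries. Libraries of 1 treatment differed by more than sampling noise (chi-square per degree of freedom at least 5.55).

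The subunits and gene lists were chosen with earlier results of these data known. Named beside the subunits are the 3 genes of each other list with the smallest p, EGR1, and the 5 genes most like FOS, JUN and JUND. HOOK2, SRF, the other genes with the paired motif, and the named cell markers and metalloproteases were added after values were seen. The upstream sequence of FOSL1 is not reported here.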

Additional observations from a re-analysis of the deposited data

Results flagged for a closer look

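JUN in DMSO replicate 3, at 22.5 CPM, lay far from the other DMSO libraries, which ran from 13.5 to 14.0 CPM. The gap made up 0.949 of the range of the 4 values, above Dixon's 95% critical value of 0.829. Of the 16 groups of 4 values examined, 2 for each subunit, this was 1, and chance gives about 1 in 20. The same library had the highest FOSL1, FOSL2, ATF3 and EGR1 values and the lowest JUND value of the DMSO libraries. Without it the log2 fold change of JUN was -0.274.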

How the results depend on the processing

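The count of subunits past the adjusted threshold of 0.05, 0 with the quasi-likelihood test of edgeR, was also 0 with RLE scaling, DESeq2, at least 10 counts in every library, thinning, and in each of the 8 fits that left out 1 library. It was 1 (FOS) with the likelihood ratio test, with an adjusted p of 0.0475, and 1 (FOS) with every gene of at least 1 count, with an adjusted p of 0.0151. With the replicate block it was 2, FOS (adjusted p = 6.04e-05) and FOSB (0.00102), where 0.0431% of all genes passed. FOS and FOSB were the only 2 genes that passed in the lower direction. Over all genes, the deviations of same-numbered libraries correlated at -0.028 to 0.26 and those of other numbers at -0.28 to 0.17. By this measure 3 of 8 libraries were most like their own number. FOS and FOSB ranked the replicates in the same order in both treatments, from replicate 2 (lowest) through 1 and 3 to 4. Correlations over all genes cannot decide whether same-numbered libraries shared a factor that moved these genes, and this was not tested. The count at an unadjusted p under 0.05, 4, was from 3 to 5 over all alternatives. The count without overlap, 1, was 2 with RLE scaling (FOS and JUN), and from 2 to 4 when single libraries were left out, with FOS among them in every such fit but the one without DMSO replicate 4. In those fits 1.30% to 3.64% of all genes had no overlap in the lower direction, against 0.840% with all libraries, since fewer libraries were compared. The median of the fast-turnover subunits relative to FOSL1 and JUND was from -0.276 to -0.171 with each library left out, and it moved by less than 1 SD under every alternative. Of 120 log2 fold changes of single subunits, 112 kept direction and side of the threshold, 4 gained the threshold and 4 changed sign. These were JUND, at 0.00539 and 0.0141 without DMSO replicate 2 or lenalidomide replicate 2 (range -0.096 to 0.0141), and ATF3, at 0.0946 and 0.0221 without DMSO replicate 3 or lenalidomide replicate 4 (range -0.0962 to 0.0946). The causes were not tested. Leaving out libraries for genes outside the subunits was added after the data were seen, and EGR1 ran from -0.55 to -0.161. FOS and FOSB, with the widest spread between libraries, had the widest intervals.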

Other observations

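Of 13925 genes tested, 12068 could be matched by symbol to a promoter, and 269 of these carry a CArG box within 500 bases upstream. Their median log2 fold change was -0.012, with 57.2% below 0 and 1.86% at an unadjusted p under 0.05 in the lower direction, against 50.0% and 0.936% of all genes matched. With FOS and FOSB left out the shares were 56.9% and 1.12%. Of the 6 genes with CGTCA 7 bases from the box, FOS was at -1.40, FOSB at -0.97, EGR2 at -0.44, EGR1 at -0.41, EGR3 at -0.39 and DUSP5 at -0.06 (standard errors 0.344, 0.261, 0.366, 0.187, 0.311 and 0.0768). EGR2 and EGR3 had means of 0.621 and 0.638 CPM, so that their values rest on few counts. Without DMSO replicate 3 EGR1 was at -0.161, EGR2 at 0.00584, EGR3 at -0.11 and DUSP5 at -0.00783. For the 424 genes with TGACGTCA outside the AP-1 subunits the median was -0.01, and for the 1466 with TATAAA -0.0041. These groups were formed after the values were seen and were not tested.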
